A study of Mus musculus with 6 samples.

Results

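The deposited expression table held 29 small RNA genes among its 3201 rows. They were chosen by 1 rule, a gene type of miRNA, snRNA, snoRNA, scaRNA or misc_RNA in the table itself, and the rule uses no measured value, although the table holds only rows that the authors selected for a difference between these livers. There were 9 miRNA genes, 9 snRNA genes, 5 snoRNA genes, 1 scaRNA gene and 5 misc_RNA genes, the last being the type that holds Y RNA, 7SK and 7SL genes and their relatives. In livers of mice lacking *Fgf18* in hepatic stellate cells, 13 of the 29 were higher and 16 were lower. The 16 lower genes were mostly those lying inside other genes, and the 13 higher genes were mostly those lying between genes. *Mir6386*, *Mir3067* and the snRNA gene *Gm24898* were among the lower genes, while copies of the U1 snRNA gene, *Rn7sk* and *Rny3* were among the higher ones. The calls of *Rn7sk* and *Rny3* were lost when some single livers were left out, and the groups of *Rny3* overlapped.

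RNA-seq of whole liver compared 3 mice of genotype *Fgf18* f/f with 3 *Fgf18* ΔHSC mice. All 6 mice were male, were on a C57BL/6 background and had undergone partial warm ischemia of the liver for 1 h followed by reperfusion for 6 h, so no liver without surgery was part of the comparison. *Fgf18* f/f mice carry *Fgf18* alleles flanked by loxP sites, and in *Fgf18* ΔHSC mice Cre driven by the GFAP promoter deletes *Fgf18*, a secreted fibroblast growth factor, in hepatic stellate cells (HSCs), which store vitamin A and lie beside the sinusoids. The f/f livers are labelled by the surgery and not by a genotype, so that genotype came from the study's text. The age of the mice is not given in the sources used here, and *Fgf18* itself was not analysed here. Values are from whole liver, in which fewer cells of a type and less RNA per cell cannot be told apart.

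Small nuclear RNAs (snRNAs) such as U1 and U6 form the core of the spliceosome. Small nucleolar RNAs (snoRNAs) guide the chemical modification of ribosomal RNA, and small Cajal body RNAs (scaRNAs) do the same for snRNAs. MicroRNAs (miRNAs) are cut from hairpins in longer transcripts and repress messenger RNAs that match their seed, a short stretch near the 5′ end. Many snoRNA and miRNA genes lie in introns of host genes and are made from the host transcript, whereas most snRNA, 7SK, 7SL and Y RNA genes have promoters of their own. The mature RNAs carry no poly(A) tail, so libraries made for messenger RNA mostly read host or precursor transcripts over these genes and a value here is not a level of the mature small RNA.

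The values were taken as TPM, reads divided by gene length and scaled to a common library total. Per kb of gene length, 1 read stood for 0.0374, 0.0449 and 0.0555 TPM in *Fgf18* f/f livers 1 to 3, against 0.0482, 0.0655 and 0.0505 TPM in *Fgf18* ΔHSC livers 1 to 3. Small RNA genes are short, from 56 to 414 bases, so few reads lay behind most values. All 29 came out as whole reads within 0.05 reads, and 3 of them (*Gm24045*, *Gm22068* and *Gm25321*) had under 10 reads in every liver. Fold changes were fitted with limma on log2(TPM + 0.1) over all 3201 rows, a scale on which the pseudocount sets part of the size for genes of few reads. Such sizes differ between methods, as for *Gm24103*, at -3.42 here and -2.54 with limma-voom on the recovered reads. Genes were called where the absolute log2 fold change exceeded 1 and the Benjamini-Hochberg adjusted p, taken over all rows, was under 0.05. The labels do not say that the livers of a group were handled separately beyond being numbered, and p-values measure the spread between these 3 and 3 samples.

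Mature sequences are shown for the 4 miRNA genes with an entry in RefSeq (GRCm38.p6), of 9 in the table, because the seed defines what a miRNA could pair with. Capitals mark the seed, bases 2 to 8. *Mir6386* gives 1 mature miRNA from chr9:92267334-92267357 on the minus strand, *Mir6397* 1 from chr4:108087414-108087434 on the plus strand, and *Mir3067* a pair from chr12:81166165-81166187 and chr12:81166201-81166223 on the plus strand. *Mir3074-1* gives miR-3074-5p from chr13:63301249-63301270 on the minus strand, opposite to *Mir24-1*, whose miR-24-3p is shown for comparison.
mmu-miR-6386: cAUGCCUUagggugggaugcaagu
mmu-miR-6397: uGGAGACUuucaguggaguga
mmu-miR-3067-5p: aGUUCUCAggcccgcuguggugu
mmu-miR-3067-3p: cCAAGCGGcugcccugggagagg
mmu-miR-3074-5p: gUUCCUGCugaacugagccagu
mmu-miR-24-3p: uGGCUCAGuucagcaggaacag
The miRNAs of the members had a different seed each. The seed of miR-6386 was shared with 1 other RefSeq mature miRNA of the mouse, miR-6339. The hairpins of *Mir3074-1* and *Mir24-1* overlap by 68 bases on opposite strands, and miR-3074-5p and miR-24-3p are complementary over a run of 20 bases.

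Of the 9 snRNA genes, 4 were copies of U1, the snRNA that pairs with the 5′ splice site. *Gm25679* (chr12:54719163-54719326, minus strand) and *Gm22068* (chr11:87426716-87426879, plus strand) are identical to *Rnu1a1* over all 164 bases, and each has 6 identical copies among the annotated small RNA genes. The other U1 copies are shown because 1 base separates each from *Rnu1a1*, and that base is in capitals. *Gm22513* (chr12:54696782-54696945, plus strand) carries T60C and *Gm24305* (chr12:54734555-54734718, minus strand) carries A26G, with the base of *Rnu1a1* first and positions counted from 1 at the 5′ end. The sequences are those of the GENCODE M21 annotation of GRCm38.
Gm22513: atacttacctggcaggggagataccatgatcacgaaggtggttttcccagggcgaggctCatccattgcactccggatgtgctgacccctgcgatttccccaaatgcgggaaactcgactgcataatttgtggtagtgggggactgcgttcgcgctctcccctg
Gm24305: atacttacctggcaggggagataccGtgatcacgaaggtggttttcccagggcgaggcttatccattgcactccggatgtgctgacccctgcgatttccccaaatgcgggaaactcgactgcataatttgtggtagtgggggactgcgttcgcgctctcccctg
Reads from U1 copies this similar cannot be assigned to 1 copy with certainty, and how reads that match several places were counted is not given in the sources used here. The values of the 4 U1 genes are therefore uncertain as values of single genes.

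Of the 29 small RNA genes, 13 were called higher and 16 were called lower in *Fgf18* ΔHSC livers. Of all rows in the table, 71.7% were called, 41.6% higher and 30.0% lower. The authors had selected every row for a difference between these same livers, so the calls are not independent evidence of one. The groups did not overlap for 26 of the 29, against 96.3% of all rows. The 13 higher genes had a median log2 fold change of 1.77 (1.12 to 3.41), and the 16 lower genes had a median of -2.40 (-4.32 to -1.26). The largest value of either direction belonged to a gene with 1 or 2 reads in a group and moved with the pseudocount. *Gm24045*, at 3.41, was at 1.35 with a pseudocount of 1 and at 5.62 with 0.01, and *Gm24898*, at -4.32, was at -2.54 and -5.56. Over all rows 2083 were higher and 1118 lower, with a median of 0.88. Among the rows with a mean of at least 1 TPM, which hold 27 of the 29 small RNA genes, calls leaned lower in the table as well, with 522 higher and 787 lower (39.9% higher) and a median of -1.05, beside 44.4% higher for the small RNA genes. By type, the higher genes were 5 snRNA, 3 miRNA, 3 misc_RNA, 1 scaRNA and 1 snoRNA genes, and the lower genes were 6 miRNA, 4 snRNA, 4 snoRNA and 2 misc_RNA genes.

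**Figure D1:**
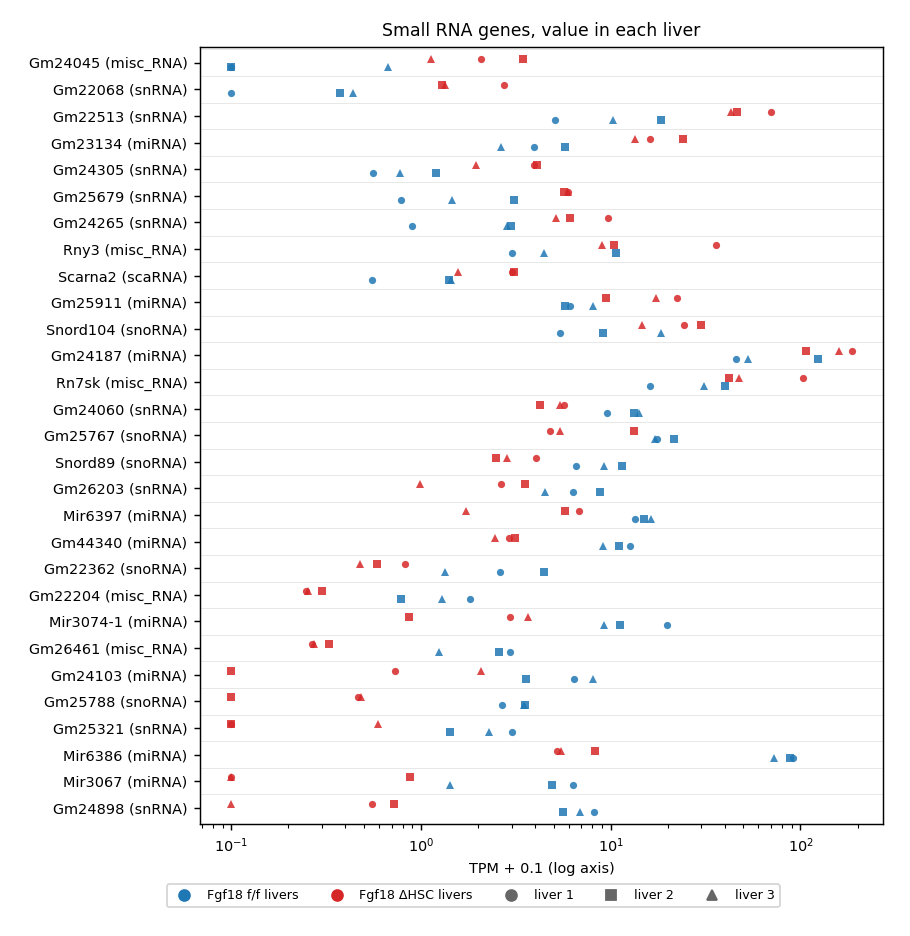
TPM + 0.1 on a log axis (x) for each of the 29 small RNA genes (y, with gene type), ordered by fold change. Blue points are the 3 *Fgf18* f/f livers and red points the 3 *Fgf18* ΔHSC livers, with circles, squares and triangles for livers 1 to 3. The 16 lower genes in the bottom part separate the groups in every case, while *Rny3*, *Gm24187* and *Snord104* overlap.

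The higher and the lower genes were then sorted by position in the genome. Of the 13 higher genes, 11 lie between annotated genes and 2 lie within a gene, in both cases on its strand. Of the 16 lower genes, 15 lie within a gene, 7 on the same strand and 8 only on the opposite strand, and 1, *Gm44340*, lies between genes. In the GENCODE M21 annotation as a whole, 3351 of 5705 small RNA genes (58.7%) lie within another gene and 2372 (41.6%) lie in one on the same strand. Whether position itself is related to the direction was not tested. Each liver was also divided by its median ratio over the table. These factors were 0.616, 0.623 and 0.694 in *Fgf18* f/f livers 1 to 3 and 1.20, 1.06 and 1.31 in *Fgf18* ΔHSC livers 1 to 3. They come from rows selected for a difference between the groups, and dividing by them lowers every fold change. The lower genes could therefore not change direction. The median fold change of all rows fell from 0.88 to 0.30, and the 13 higher genes stayed above 0. Of these 13, 6 were then called, namely the 4 U1 copies, *Gm23134* and *Gm24045*.

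**Figure D2:**
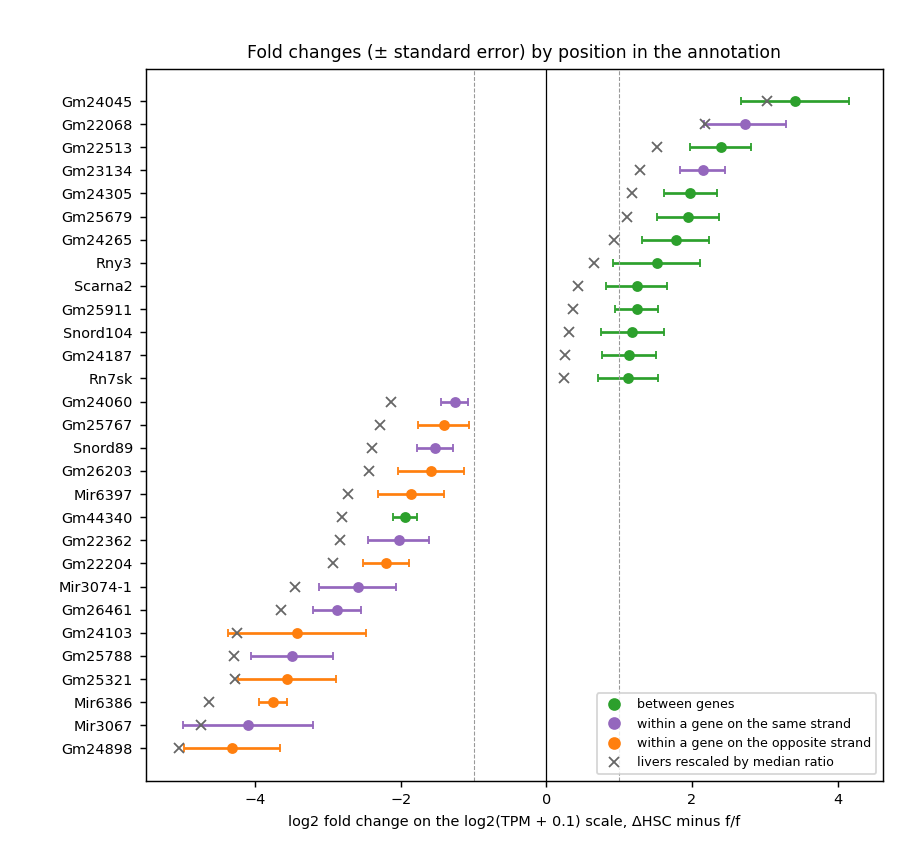
Log2 fold change on the log2(TPM + 0.1) scale (x, *Fgf18* ΔHSC minus *Fgf18* f/f, with standard error) of each small RNA gene (y), coloured by position in the annotation. Crosses give the value after rescaling of the livers and dashed lines the limits of -1 and 1. All 8 genes that lie within a gene on the opposite strand only are below 0, and 11 of the 12 genes lying between genes are above 0.

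The U1 copies were higher in *Fgf18* ΔHSC livers. *Gm22513* had 5.01, 18.3 and 10.2 TPM in *Fgf18* f/f livers 1 to 3 and 69.7, 46.3 and 43.1 TPM in *Fgf18* ΔHSC livers 1 to 3. The 22 to 237 reads behind these values made it the deepest of the 4 copies, and its groups were separate by a wide margin. Its log2 fold change was 2.39 ± 0.42 (SE, limma adjusted p = 0.000986), and the ratio of its read rates was 4.98 with an exact 95% interval of 4.07 to 6.13. Intervals of read rates cover counting error only. *Gm25679* had 0.683, 3.01 and 1.35 TPM in *Fgf18* f/f livers, against 5.88, 5.59 and 5.86 TPM in *Fgf18* ΔHSC livers, a log2 fold change of 1.95 ± 0.43 (SE, limma adjusted p = 0.00285). *Gm24305* had 0.456, 1.09 and 0.677 TPM and then 3.82, 3.99 and 1.85 TPM in the same order, a log2 fold change of 1.97 on 2 to 13 reads (limma adjusted p = 0.00126). These 3 copies lie near each other on chromosome 12, and in all 3 *Fgf18* f/f liver 1 was the lowest of the 6. The fourth copy, *Gm22068*, lies in an intron of *Tex14*, a gene of germ cell division that was not analysed here. It had at most 1 read in any *Fgf18* f/f liver and 3 to 9 reads in the *Fgf18* ΔHSC livers, so its read-rate ratio of 9.61 had a counting interval of 2.26 to 86.2.

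Among the other snRNA genes, 1 was higher and 4 were lower. *Gm24265* (chr5:115489459-115489599, between genes) has a close copy, *Gm24407* (98.6% over 141 bases), between which reads could be divided. It had 0.795, 2.86 and 2.76 TPM in *Fgf18* f/f livers, against 9.57, 6.03 and 5.02 TPM in *Fgf18* ΔHSC livers, a log2 fold change of 1.77 ± 0.46 (SE, limma adjusted p = 0.00628). With rescaled livers the fold change was 0.93, and *Gm24265* was not called. *Gm24060* (chr11:118180941-118181035) lies in an intron of *Cyth1*, an exchange factor of small GTPases, on its strand. It had 9.44, 13.2 and 14.0 TPM against 5.58, 4.13 and 5.32 TPM, the smallest change among the lower genes, with a log2 fold change of -1.26 ± 0.19 (SE, limma adjusted p = 0.000458).
A pair of U6 relatives lie in introns on the opposite strand of their containing gene. U6 is the snRNA of the catalytic centre of the spliceosome, and *Gm26203* matched *Rnu6* at 85.0% over 107 bases and *Gm25321* at 95.8% over 96 bases. *Gm25321* also matched *Gm22505* at 96.9% over 96 bases, and reads could be divided between them. *Gm26203* (chr1:191772721-191772834, in *Lpgat1*) had 6.23, 8.66 and 4.38 TPM in *Fgf18* f/f livers, against 2.54, 3.44 and 0.887 TPM in *Fgf18* ΔHSC livers, a log2 fold change of -1.58. *Gm25321* (in *Ap1g1*) had 3 to 8 reads in the *Fgf18* f/f livers and at most 1 in the *Fgf18* ΔHSC livers, and its read rate was 12.5-fold higher in *Fgf18* f/f livers with a counting interval of 1.92 to 525. *Gm24898* lies in an intron of *Ehhadh* on the opposite strand and is described with that gene below.

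*Rn7sk* (chr9:78175303-78175633) encodes 7SK, the RNA that holds the transcription elongation factor P-TEFb inactive, and it had the most reads of the 29. It matched *Gm24447* without a mismatch over 241 bases, and reads could be divided between them there. *Rn7sk* stood at 15.9, 40.0 and 30.9 TPM in *Fgf18* f/f livers and at 103, 41.9 and 47.3 TPM in *Fgf18* ΔHSC livers. The groups were separate, but *Fgf18* f/f liver 2 and *Fgf18* ΔHSC liver 2 were close to each other, and *Fgf18* ΔHSC liver 1 carried 707 of the reads. The log2 fold change was 1.12 ± 0.41 (SE, limma adjusted p = 0.0271) and stayed above 0 at 0.72 to 1.41 with any liver left out. *Rn7sk* was no longer called without *Fgf18* ΔHSC liver 1, without *Fgf18* f/f liver 1 or without *Fgf18* f/f liver 3. With rescaled livers its fold change was 0.24, and *Rn7sk* was not called.
*Rny3* (chr6:47781624-47781725) encodes a Y RNA, a partner of the Ro60 protein. It had 2.93, 10.6 and 4.35 TPM in *Fgf18* f/f livers, against 35.9, 10.3 and 8.92 TPM in *Fgf18* ΔHSC livers. *Fgf18* f/f liver 2 lay above 2 of the *Fgf18* ΔHSC livers, so the groups overlapped. The log2 fold change was 1.52 ± 0.60 (SE, limma adjusted p = 0.0362), and it was 0.88 and not called without *Fgf18* ΔHSC liver 1. It was also not called without *Fgf18* f/f liver 1 or *Fgf18* f/f liver 3. *Gm24045* (chr4:114987964-114988061), which matched *Rny1* at 77.1% over 105 bases, had 0 to 1 reads in *Fgf18* f/f livers and 2 to 5 in *Fgf18* ΔHSC livers. The read-rate ratio of *Gm24045* was 13.2 with a counting interval of 1.92 to 569.

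The other misc_RNA genes lie within genes and were lower. *Gm22204* (chr8:3615529-3615855) matched *Rn7sk* at 74.7% over 217 bases and lies in an intron of *Xab2*, a splicing and DNA repair factor, on the opposite strand. It had 1.71, 0.686 and 1.19 TPM in *Fgf18* f/f livers, against 0.147, 0.20 and 0.155 TPM in *Fgf18* ΔHSC livers, where each value was a single read. Its direction was thus opposite to that of *Rn7sk*, with a log2 fold change of -2.20 (limma adjusted p = 0.000356) and a read rate 7.49-fold higher in *Fgf18* f/f livers (counting interval 2.30 to 38.6). With a pseudocount of 1 its fold change was -0.88 and *Gm22204* was not called. *Gm26461*, a relative of the 7SL gene *Rn7s1* (96.5% over 201 bases, a stretch whose reads could be divided between them), is described with its host *Zfp949* below.

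The scaRNA gene and 1 snoRNA gene were higher, and both lie between annotated genes. *Scarna2* (chr3:108554338-108554751) guides modification of snRNA and had 0.451, 1.30 and 1.34 TPM in *Fgf18* f/f livers, against 2.91, 3.0 and 1.46 TPM in *Fgf18* ΔHSC livers. *Fgf18* ΔHSC liver 3 exceeded *Fgf18* f/f liver 3 by little, and the log2 fold change of 1.24 ± 0.42 (SE, limma adjusted p = 0.020) was not called without *Fgf18* ΔHSC liver 1, *Fgf18* ΔHSC liver 2 or *Fgf18* f/f liver 1. With a pseudocount of 1 it was 0.77, and *Scarna2* was again not called. *Snord104* (chr11:106500993-106501062, plus strand) had 5.34, 8.98 and 18.2 TPM in *Fgf18* f/f livers, against 24.1, 29.9 and 14.4 TPM in *Fgf18* ΔHSC livers. Its groups overlapped, with *Fgf18* f/f liver 3 above *Fgf18* ΔHSC liver 3, and the log2 fold change was 1.18 ± 0.43 (SE, limma adjusted p = 0.0272). Its fold change was 0.77 to 1.64 with any liver left out, and it was not called without liver 1 or without liver 2 of either group.
The other snoRNA genes were lower, and *Snord89* is shown beside *Snord104* because these snoRNAs of the same family, the box C/D RNAs that guide methylation of ribose, moved in opposite directions. Capitals mark TGATGA and the last CTGA, letters of the C and D boxes, searched on the strand of the gene only. In that order both were found in 362 of 1507 annotated snoRNA genes (24%).
Snord104: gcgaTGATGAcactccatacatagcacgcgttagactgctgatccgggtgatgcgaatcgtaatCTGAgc
Snord89: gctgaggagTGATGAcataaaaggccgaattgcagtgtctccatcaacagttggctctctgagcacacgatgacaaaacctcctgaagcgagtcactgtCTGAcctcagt
*Snord89* (chr1:39548745-39548854, minus strand) lies in an intron of *Gm15832*, a noncoding transcript on the same strand that was not analysed here. It had 6.45, 11.4 and 9.08 TPM in *Fgf18* f/f livers, against 3.94, 2.38 and 2.76 TPM in *Fgf18* ΔHSC livers, a log2 fold change of -1.53 ± 0.25 (SE, limma adjusted p = 0.000713).

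The other 3 snoRNA genes lie within protein-coding genes. *Gm25767* (chr5:36671658-36671781) matched *Snora17* at 92.1% over 63 bases, has 1 close copy (*Gm23823*, 99.2% over 124 bases) and lies opposite an exon of *D5Ertd579e*. It had 17.5, 21.4 and 17.0 TPM in *Fgf18* f/f livers, against 4.67, 13.2 and 5.30 TPM in *Fgf18* ΔHSC livers. *Fgf18* ΔHSC liver 2 lay nearest to the *Fgf18* f/f livers, and the log2 fold change was -1.41 (limma adjusted p = 0.00526). *Gm22362* (chr6:131380273-131380406) matched *Snora70*, an H/ACA snoRNA of the kind that guides pseudouridine formation, at 76.3% over 135 bases. It lies in an intron of *Ybx3*, a cold-shock domain protein gene, and had 2.51, 4.35 and 1.24 TPM against 0.720, 0.488 and 0.377 TPM. *Gm25788* (chr4:123291344-123291474) lies in an intron of *Pabpc4*, a poly(A)-binding protein gene, has 2 copies of at least 95% identity, so that reads could be divided here too, and had 2.57, 3.43 and 3.39 TPM against 0.368, 0 and 0.386 TPM. In both genes every *Fgf18* ΔHSC liver had at most 2 reads. Read rates were 5.20-fold higher in *Fgf18* f/f livers for *Gm22362* (counting interval 1.80 to 20.6) and 11.2-fold higher for *Gm25788* (2.82 to 97.5).

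Of the 9 miRNA genes, 6 were lower, among them all 4 with a mature miRNA in RefSeq. *Mir6386* (chr9:92267258-92267361, minus strand) lies in an intron of *Plscr1*, a phospholipid scramblase gene on the opposite strand that was not analysed here. It had 91.2, 87.6 and 72.1 TPM in *Fgf18* f/f livers, against 5.10, 8.18 and 5.35 TPM in *Fgf18* ΔHSC livers, on 135 to 254 reads and 11 to 13 reads. The groups were far apart and each varied little. The log2 fold change was -3.76 ± 0.19 (SE, limma adjusted p = 1.09e-05), between -3.97 and -3.63 with any liver left out, and the read rate was 14.1-fold higher in *Fgf18* f/f livers (exact 95% interval 10.01 to 20.4). This was the lowest adjusted p of the 29.
*Mir3067* (chr12:81166151-81166234) lies in an intron of *Smoc1*, an extracellular calcium-binding protein gene, on its strand. It had 6.23, 4.81 and 1.32 TPM in *Fgf18* f/f livers, against 0, 0.779 and 0 TPM in *Fgf18* ΔHSC livers. There was only 1 read in the 3 *Fgf18* ΔHSC livers together, and the read rate was 20.8-fold higher in *Fgf18* f/f livers with a counting interval of 3.41 to 854. The fitted log2 fold change of -4.10 rests on these few reads.
*Mir3074-1* (chr13:63301199-63301283) lies in an intron of *Fancc*, a Fanconi anemia DNA repair gene, on its strand, and opposite an exon of *2010111I01Rik*. It had 19.8, 11.1 and 9.14 TPM in *Fgf18* f/f livers, against 2.84, 0.770 and 3.57 TPM in *Fgf18* ΔHSC livers. Its groups were separate, with a log2 fold change of -2.59 ± 0.53 (SE, limma adjusted p = 0.00196). Because the strand setting of the counting is not given in the sources used here, reads of *Mir3074-1* and of the transcripts opposite to it cannot be told apart. The same holds for each of the 8 lower genes that lie only on the opposite strand of another gene, and for the higher gene *Gm23134* and *Nnat*.

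The remaining lower miRNA genes were *Mir6397*, described below with *Podn*, and *Gm24103* and *Gm44340*. *Gm24103* (chr8:111041948-111042024) matched *Mir3470a* at 88.3% over all of its 77 bases and lies opposite an exon of *Aars*, the alanine tRNA ligase gene. It had 6.31, 3.50 and 7.93 TPM in *Fgf18* f/f livers, against 0.626, 0 and 1.97 TPM in *Fgf18* ΔHSC livers, a log2 fold change of -3.42 with a standard error of 0.95, the largest of the 29. The *Fgf18* ΔHSC livers held 4 reads of *Gm24103* in all, and its read rate was 6.24-fold higher in *Fgf18* f/f livers (counting interval 2.20 to 24.4). Its fold change was -2.22 without *Fgf18* ΔHSC liver 2, -1.98 with a pseudocount of 1 and -4.59 with 0.01, and it was called in each case. *Gm44340* (chr14:70299922-70300007, minus strand) was the only lower gene lying between genes. It matched *Rnu2-10* at 95.3% over 43 of its 86 bases, and reads could be divided between them there. It had 12.6, 11.0 and 9.04 TPM in *Fgf18* f/f livers, against 2.80, 3.04 and 2.35 TPM in *Fgf18* ΔHSC livers, a log2 fold change of -1.95 ± 0.17 (SE, limma adjusted p = 4.15e-05).

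The higher miRNA genes were *Gm24187*, *Gm25911* and *Gm23134*. *Gm24187* (chr13:9834469-9834525) and *Gm25911* (chr1:167340369-167340424) are shown together because they are relatives on different chromosomes, each with 3 copies of at least 95% identity, and reads could be divided between such copies. They are miRNA genes by the type given in the table, and whether they hold ribosomal RNA sequence was not checked here. Capitals mark their longest shared run, 23 bases.
Gm24187: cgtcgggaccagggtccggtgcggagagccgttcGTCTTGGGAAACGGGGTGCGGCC
Gm25911: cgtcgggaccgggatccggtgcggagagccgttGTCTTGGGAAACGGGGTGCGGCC
*Gm24187* had 45.9, 124 and 52.6 TPM in *Fgf18* f/f livers, against 186, 107 and 159 TPM in *Fgf18* ΔHSC livers, so *Fgf18* f/f liver 2 exceeded *Fgf18* ΔHSC liver 2. Its log2 fold change was 1.13 ± 0.37 (SE, limma adjusted p = 0.0170). It was not called without either liver 1, without *Fgf18* f/f liver 3 or without *Fgf18* ΔHSC liver 3. *Gm25911* had 6.0, 5.61 and 7.93 TPM in *Fgf18* f/f livers, against 22.4, 9.35 and 17.1 TPM in *Fgf18* ΔHSC livers, a log2 fold change of 1.24 ± 0.30 (SE, limma adjusted p = 0.00466). In both genes *Fgf18* ΔHSC liver 1 was the highest of the 6 livers and *Fgf18* ΔHSC liver 2 the lowest of its group. Without *Fgf18* ΔHSC liver 1 *Gm25911* was at 0.96 and was not called.

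Host genes could be compared for a few of the small RNA genes. Of the 9 small RNA genes that lie within a gene on its own strand, 2 had that host in the table, and 2 other small RNA genes had a gene of the opposite strand in it. *Gm23134* (chr2:157562361-157562447, minus strand) lies in an intron of *Blcap* (chr2:157556362-157571274), an imprinted gene, and opposite an exon of *Nnat* (chr2:157560078-157562522), the imprinted neuronatin gene. *Gm23134* had 3.86, 5.67 and 2.55 TPM in *Fgf18* f/f livers, against 16.1, 24.1 and 13.4 TPM in *Fgf18* ΔHSC livers, a log2 fold change of 2.15 ± 0.31 (SE, limma adjusted p = 0.000372). *Blcap* had 4.87, 5.10 and 4.85 TPM and then 17.1, 23.4 and 20.8 TPM, a log2 fold change of 2.01 ± 0.14 (SE, limma adjusted p = 1.98e-05). *Nnat* had 0.796, 1.06 and 0.637 TPM and then 3.40, 3.36 and 2.82 TPM, a log2 fold change of 1.84 ± 0.20 (SE). All 3 genes of this locus were higher, and *Fgf18* ΔHSC liver 2 was the highest for *Gm23134* and for *Blcap*. *Gm23134* relative to *Blcap* changed by 0.13 in log2 units (exact two-sided permutation test over 6 livers, p = 0.7), and relative to *Nnat* by 0.30 (same test, p = 0.4), with reads of *Gm23134* and *Nnat* not told apart where they overlap. The difference from *Nnat* was 0.71 with a pseudocount of 1 and 0.10 without *Fgf18* ΔHSC liver 2. With 3 livers against 3 this test cannot give a p below 0.1, and a difference of a size within the spread of the livers would not have been seen.

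*Gm26461* (chr9:88553236-88553525), the 7SL relative, lies in an intron of *Zfp949* (chr9:88548020-88571061), a zinc finger protein gene, on its strand. It had 2.83, 2.48 and 1.15 TPM in *Fgf18* f/f livers, against 0.166, 0.226 and 0.174 TPM in *Fgf18* ΔHSC livers, where each value was a single read. Its log2 fold change was -2.88 ± 0.33 (SE, limma adjusted p = 0.000125), and its read rate was 12.2-fold higher in *Fgf18* f/f livers (counting interval 3.91 to 61.4). *Zfp949* had 6.19, 6.24 and 5.70 TPM and then 1.40, 1.39 and 1.03 TPM, a log2 fold change of -2.17 ± 0.16 (SE, limma adjusted p = 2.26e-05). Member and host were both lower. Their difference changed by -0.70 (two-sided exact permutation test, p = 0.3), and its sign depended on the pseudocount, being 0.27 with a pseudocount of 1.

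**Figure D3:**
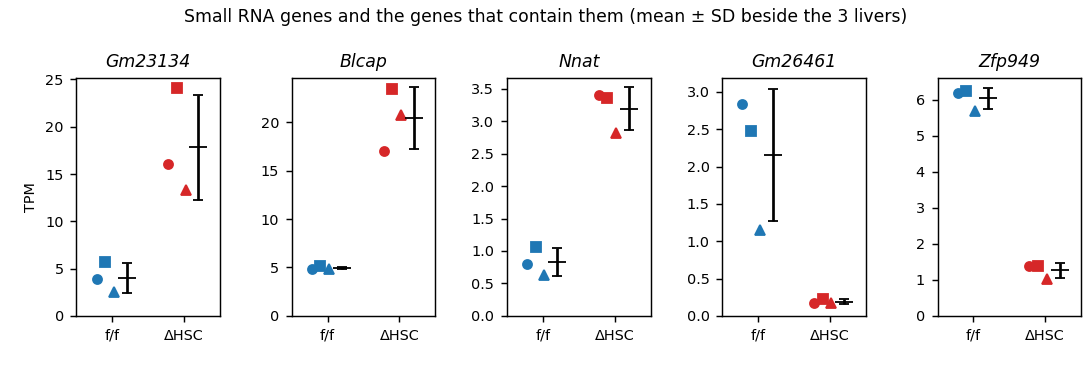
TPM (y, linear from 0, a scale of its own in each panel) of *Gm23134* with *Blcap* and *Nnat* and of *Gm26461* with *Zfp949* in the 3 *Fgf18* f/f livers (blue) and the 3 *Fgf18* ΔHSC livers (red). Black marks give the mean ± SD of 3 livers, for example 4.94 ± 0.139 and 20.4 ± 3.21 TPM for *Blcap*, and in each panel the groups do not overlap.

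The other 2 small RNA genes, *Mir6397* and *Gm24898*, were compared with a gene on the opposite strand. *Mir6397* (chr4:108087357-108087449, plus strand) lies opposite introns of *Podn*, a gene of a small leucine-rich proteoglycan, and of *Scp2*, a sterol carrier protein gene that was not analysed here. It had 13.3, 15.0 and 16.1 TPM in *Fgf18* f/f livers, against 6.74, 5.63 and 1.63 TPM in *Fgf18* ΔHSC livers, a log2 fold change of -1.86 ± 0.46 (SE, limma adjusted p = 0.00486). *Podn* had 0.446, 0.463 and 0.728 TPM and then 0.260, 0.230 and 0.284 TPM, a log2 fold change of -0.83 that was not called. The level of *Mir6397* was well above that of *Podn* in every liver, and relative to *Podn* it changed by -1.04 (two-sided exact permutation test, p = 0.1, the smallest possible). Without *Fgf18* ΔHSC liver 3 the difference was -0.37.
*Gm24898* (chr16:21774113-21774218, plus strand) lies opposite an intron of *Ehhadh*, an enzyme of peroxisomal fatty acid oxidation. It had 8.10, 5.50 and 6.81 TPM in *Fgf18* f/f livers, against 0.455, 0.617 and 0 TPM in *Fgf18* ΔHSC livers, and with 49 reads against 2 its read rate was 20.4-fold higher in *Fgf18* f/f livers (counting interval 5.35 to 173). *Ehhadh* was lower by much less, from 169 ± 10.04 to 84.5 ± 14.4 TPM (SD, n = 3 livers each). Its log2 fold change was -1.01 ± 0.14 (SE, limma adjusted p = 0.000311), close to the limit for a call. *Ehhadh* was not called without *Fgf18* f/f liver 3 (-0.97) or without *Fgf18* ΔHSC liver 1 (-0.90). *Gm24898* relative to *Ehhadh* changed by -3.31 (two-sided exact permutation test, p = 0.1, the smallest possible). The difference was -1.53 with a pseudocount of 1, -4.55 with 0.01 and -2.43 without *Fgf18* ΔHSC liver 3.

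The higher small RNA genes were also compared by the order of the livers within a group, which was not the same in all of them. Among the 13, *Fgf18* f/f liver 1 was the lowest *Fgf18* f/f liver for 10, *Fgf18* f/f liver 2 was the highest for 8, the full order of liver 2 above 3 above 1 was seen for 7, and *Fgf18* ΔHSC liver 1 was the highest of its group for 8. Among the 16 lower genes these counts were 4, 5, 2 and 4. *CT010467.1*, the ribosomal RNA gene of the table, had 1521, 3443 and 2047 TPM in *Fgf18* f/f livers, against 5724, 5301 and 5515 TPM in *Fgf18* ΔHSC livers, a log2 fold change of 1.32 ± 0.27 (SE, limma adjusted p = 0.00194). It was also lowest in *Fgf18* f/f liver 1 and highest in *Fgf18* ΔHSC liver 1. Mature ribosomal RNA, like mature small RNA, has no poly(A) tail, and the part that its share of a library plays in these values was not tested.

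**Figure D4:**
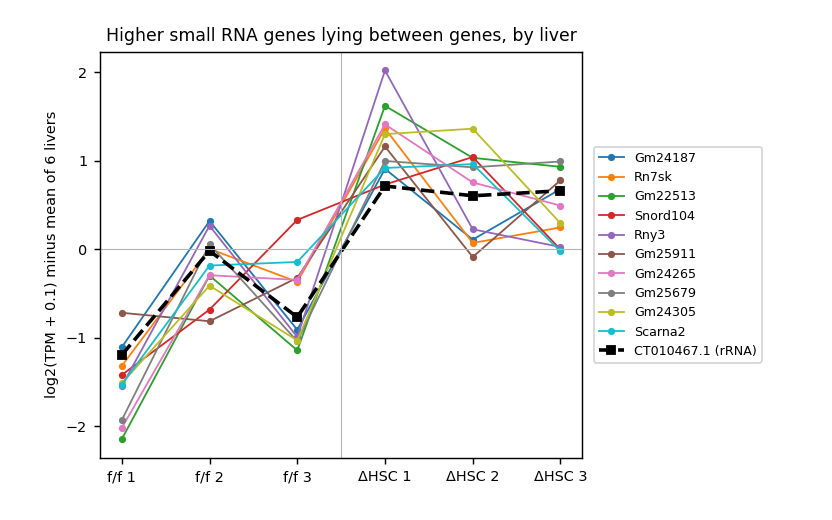
Log2(TPM + 0.1) minus the mean of the 6 livers (y) in each liver (x) for the 10 higher small RNA genes that lie between genes and had at least 10 reads in a liver, with *CT010467.1* dashed. Lines join the values of 1 gene and have no meaning as a course. Most of the lines have their lowest point in *Fgf18* f/f liver 1, and most have their highest in *Fgf18* ΔHSC liver 1, though not all of them have both.

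Few genes that make or bind small RNAs were listed, and the counts of calls among them stand beside 71.7% of all rows called. The sizes of these lists and of the host lists below are counts of gene names, and some genes stand in them under more than 1 name. Of 27 genes of miRNA processing, 4 were listed and 1 was called, *Dis3l2*, an exonuclease that degrades uridylated precursor RNA, with 2.11 ± 0.0946 TPM in *Fgf18* f/f livers, against 0.921 ± 0.0851 TPM in *Fgf18* ΔHSC livers (SD, n = 3 livers each) and a log2 fold change of -1.11. *Lin28a* and *Lin28b* in this list were at 0 in some livers. None of 29 snoRNP and scaRNP protein genes was listed. Of 44 genes of snRNP and spliceosome assembly, 1 was listed and called higher, *Lsm11*, of the U7 snRNP. Of 43 genes of snRNA transcription and 3′ processing, 1 was listed and called lower, *Ell*, an elongation factor that also serves snRNA genes, with a log2 fold change of -1.33 ± 0.17 (SE, limma adjusted p = 0.000225). Of 28 partners of Y RNA, 7SL, 7SK and RNase P, 2 were listed and 1 was called. That gene was *Hexim1*, the inhibitor that acts with 7SK on P-TEFb, with 2.03, 2.08 and 2.49 TPM in *Fgf18* f/f livers, against 4.98, 4.85 and 6.0 TPM in *Fgf18* ΔHSC livers, a log2 fold change of 1.22 ± 0.15 (SE, limma adjusted p = 0.000186). *Hexim1* and *Rn7sk* were thus both higher.

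Some known host transcripts of small RNAs were listed, none of which holds any of the 29 genes, and their calls stand beside 41.6% of all rows called higher and 30.0% called lower. Of 37 snoRNA host transcripts, 3 were listed, all with higher values, and 2 were called. *Zfas1* rose from 0.898 ± 0.129 to 2.46 ± 0.331 TPM and *Snhg1* from 1.69 ± 0.269 to 3.61 ± 0.388 TPM (SD, n = 3 livers each). Of 42 miRNA host transcripts, 5 were listed, 3 were called higher and 1 was called lower. *Mir17hg*, the transcript of the miR-17 cluster, rose with a log2 fold change of 1.001 and *Mest* with 1.22, while *Ppargc1b* fell, with -1.05. Replication-dependent histone genes, whose messages also lack a poly(A) tail, were called higher in 5 of the 6 listed, among them *Hist1h4h* with a log2 fold change of 1.40, and *Hist1h1c* was called lower with -1.26. Of 6 listed genes of the mitochondrial genome, 4 were called lower and 1, *mt-Tn*, was called higher. *mt-Ts1* had 793, 2011 and 10485 TPM in *Fgf18* f/f livers, against 425, 418 and 171 TPM in *Fgf18* ΔHSC livers, while *mt-Tn* had 0.526, 0.632 and 0 TPM and then 10.2, 1.84 and 49.8 TPM. *mt-Tt* was lower in each *Fgf18* ΔHSC liver, with a log2 fold change of -1.63. Transfer RNA genes of 1 genome therefore differed in direction. The only higher one, *mt-Tn*, was near 0 in the *Fgf18* f/f livers and very uneven in the *Fgf18* ΔHSC livers, highest in liver 3.

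Markers of liver cell types also differed between the groups, and their part in the values of the small RNA genes was not tested. The counts below stand beside a table in which 71.7% of all rows were called, 41.6% higher and 30.0% lower, and each list has few members in it. The 3 listed of 15 hepatocyte markers were all called lower, led by *Cyp2e1* with a log2 fold change of -1.67, *Pck1* with -1.64 and *Cyp3a11* with -1.47, and their summed level was 2830 to 3057 TPM in *Fgf18* f/f livers, against 850 to 1147 TPM in *Fgf18* ΔHSC livers. Of 16 hepatic stellate cell markers 11 were listed and 8 were called higher, with *Acta2* at 1.92, *Pdgfrb* at 1.89 and *Hand2* at 1.84 on the log2 scale and sums of 7.84 to 10.2 and 21.8 to 32.6 TPM. All 5 listed of 13 sinusoidal endothelial markers were called higher, *Ehd3*, *Pecam1* and *Gpr182* by 1.80, 1.79 and 1.71, with sums of 21.5 to 23.3 and 51.2 to 67.4 TPM. Of 13 Kupffer cell and macrophage markers 5 were listed and 4 called higher, *Ccr2*, *Cd68* and *C1qa* by 1.90, 1.80 and 1.32, with sums of 10.5 to 13.4 and 28.1 to 40.3 TPM. Of 12 neutrophil markers 6 were listed, 2 called higher and 4 lower, among the lower the granule genes *Ngp*, *Camp* and *Ltf* with -3.68, -3.004 and -2.57. Sums over all 6 were 418 to 514 and 123 to 159 TPM. *Ngp*, *Camp* and *Ltf* averaged only 9.16, 1.45 and 1.11 TPM in *Fgf18* f/f livers. Most of the sum thus lay in the other listed members, *Lcn2*, *Csf3r* and *Cxcr2*, of which 2 were called higher and the remaining 1 lower. Most of the fall of the sum therefore came from that 1 lower gene, and the sum does not describe the listed neutrophil markers as a set. Of 13 lymphocyte markers 4 were listed, *Igkc* (2.55) and *Ighm* (1.57) called higher and *Gzma* and *Gzmb* (-1.80) called lower, with sums of 8.51 to 13.2 and 25.9 to 48.2 TPM. All 4 listed of 7 red cell markers were called higher, *Hba-a1*, *Hbb-bs* and *Hbb-bt* by 2.36, 2.36 and 2.23, with sums of 70.9 to 116 and 396 to 539 TPM. No listed marker was at 0 in any liver, and the other markers of these lists were not analysed here.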

How the data were processed

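RNA-seq libraries of 6 whole livers, 3 in each group, were assigned to groups by their labels. Per the study's methods, RNA was isolated with Trizol, stranded mRNA libraries were made with the VAHTS kit, and reads were aligned to GRCm38 with HISAT2 2.1.0 (strandness RF) and counted per gene with featureCounts 1.6.3. The submitters' processing notes also name cutadapt 2.5. The annotation release and, for the counting, the strand setting and the handling of reads with several matches are not given in the sources used here. The authors deposited 1 table with a value per gene and liver, whose unit is not named and was taken as TPM, since values below 500 reads gave whole reads (within 0.05) in 93.3 to 94.0% of cases and in all 6 livers for 2930 rows. The table also holds the authors' fold change, p-value, adjusted p-value and direction, which were not used. Library totals are unknown.

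Positions and sequences came from GENCODE M21 (3196 of 3201 rows matched) and RefSeq, and copies were sought with blastn 2.17.0. Groups were compared on log2(TPM + 0.1) by limma 3.58.1 under R 4.3.3 (lmFit, then eBayes with a trend), checked on simulated data, and exact tests used scipy 1.17.1 in Python 3.11.15. Members called and with at least 10 reads in a liver, members with a containing gene in the table, and those containing genes are given by liver, the others by range. From each list up to 3 called genes averaging 1 TPM or more in a group were named by size of change. *Lsm11*, *Lin28a*, *Lin28b*, *Gzma*, *Lcn2*, *Csf3r* and *Cxcr2* were named beyond that rule after their values were seen. The members and all lists were chosen with earlier results of these data known. Alternatives were pseudocounts of 1 and 0.01, filters on TPM and reads, rescaled livers, no trend, limma-voom on recovered reads, a replicate block, and each liver left out.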

Additional observations from a re-analysis of the deposited data

How the results depend on the processing

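Across 14 alternatives, 401 fold changes of small RNA genes were computed and 0 changed sign. This count was largely fixed in advance. For genes whose groups did not overlap, no pseudocount, filter, trend setting or left-out liver could change the sign, and the replicate block does not change the estimate. The 13 higher calls were 12 with a pseudocount of 1, which lost *Scarna2*, 13 with 0.01, 12 and 11 with the filters on TPM and reads, 13 without the trend or with limma-voom, 11 with the replicate block, and 6 with rescaled livers. The rescaling lost *Gm25911* (0.36), *Scarna2* (0.43), *Gm24265* (0.93), *Rny3* (0.65), *Rn7sk* (0.24), *Snord104* (0.31) and *Gm24187* (0.25), with the rescaled log2 fold change in brackets. The factors lie below 1 in the *Fgf18* f/f livers and above 1 in the *Fgf18* ΔHSC livers, so this rescaling lowers every fold change. Whether the factors reflect the livers or the selection of the rows was not tested. With each liver left out in turn, 7 to 12 higher genes were called (7 without *Fgf18* ΔHSC liver 1, which lost *Gm25911*, *Scarna2*, *Rny3*, *Rn7sk*, *Snord104* and *Gm24187*, and 8 without *Fgf18* f/f liver 1) and 16 lower genes each time. The 16 lower calls were 15 with a pseudocount of 1, which lost *Gm22204*, 15 with either filter, under which fewer genes were tested, and 16 otherwise. Over all rows, 1333 higher and 961 lower calls (58.1% higher) became 353 and 1113 after rescaling (24.1% higher) and 266 and 566 with a pseudocount of 1.

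*Podn* passed the threshold at -1.02 with a pseudocount of 0.01 and at -1.55 with rescaled livers. *Ehhadh* ranged from -1.14 to -0.90 with a liver left out. *Gm23134* minus *Blcap* ranged from -0.14 to 0.39 with a liver left out, and *Gm26461* minus *Zfp949* was 0.27 with a pseudocount of 1 and -1.10 with 0.01. Deviations of same-numbered livers had correlations of r = 0.057, 0.006 and 0.031, against -0.092 to 0.058 between livers of different numbers. Whether the numbers stand for a shared day, litter or surgery was not tested. The replicate block lost *Rny3* and *Rn7sk* (11 higher calls). Depth limits the 8 lower genes with at most 3 reads in every *Fgf18* ΔHSC liver and the 2 higher genes with at most 3 reads in every *Fgf18* f/f liver.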
